A study of Mus musculus with 32 samples.

Results

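The comparison described here is that of the mouse striatum 8 h after reperfusion began with the striatum of sham-operated mice. Its members are the 4 arrays titled as striatum after ischaemia and reperfusion (I/R) at 8 h and the 4 titled as striatum sham, 8 of the 32 arrays of the series. The other arrays hold the striatum at 2 h and 24 h and the same 4 groups from the cortex.

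The I/R 8 h group consisted of male wild-type mice on a C57BL/6J background, 8-10 weeks of age, in which a suture blocked the middle cerebral artery for 2 h. The suture was then withdrawn and the right striatum, in the territory of the infarct, was taken 8 h later. The sham group consisted of mice of the same sex, strain, genotype and age that received the first anaesthetic and the neck incision. No suture was placed in them, and the hour at which their tissue was taken is not stated, so I/R cannot be told apart from the time since surgery or from the second anaesthesia of the I/R mice. The labels do not say that each array is a separate animal, so p-values measure the spread between arrays. For the striatal comparison that spread was pooled over all 16 striatal arrays, those at 2 h and 24 h included.

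The striatum is built mainly from inhibitory projection neurons that carry dopamine receptors, and it lies in the core of the territory of the middle cerebral artery. When flow stops, neurons lose their ion gradients, and on reperfusion glia and vessel cells release chemokines that draw in neutrophils and monocytes. In the same hours astrocytes switch on injury genes, stressed cells make chaperones, and circulating glucocorticoid activates genes through its nuclear receptor in many cell types.

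Expression was read on a mouse bead array as 1 fluorescence signal per probe, given below as a log2 signal after background correction and quantile normalization. A change is the mean log2 signal at I/R 8 h minus that in sham, with its standard error (SE) from limma, so that a change of 1 is a doubling. A level of one gene's probe cannot be set against that of another. The striatal arrays had median raw signals of 69.4 to 89.8 intensity units at I/R 8 h and 57.2 to 103.7 in sham. Of the probes, 53.02% to 53.83% were detected at I/R 8 h and 52.57% to 55.25% in sham. Every I/R 8 h array lay at position G of its slide and every sham array at A or E, so position and group cannot be told apart. Slides 1, 3 and 4 held both groups, while I/R 8 h replicate 4 lay on slide 2 without a sham array. With 4 arrays a group, precision is limited by their number.

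Of 9866 genes tested, 346 passed an adjusted p of 0.05 in limma (3.51%), 171 of them higher (1.73%) and 175 lower (1.77%) at I/R 8 h. At 2-fold or more, 46 genes were higher (0.466%) and 13 lower (0.132%). The 4 I/R arrays lay above all sham arrays for 657 genes (6.66%) and below them for 697 (7.06%). The median change over all genes was 0.01, and also 0.01 with median scaling. Both scalings align the arrays, so neither could show a shift of all genes. Leaving out I/R 8 h replicate 1, 2, 3 or 4 gave 258, 190, 180 or 190 called genes, and leaving out sham replicate 1, 2, 3 or 4 gave 93, 74, 59 or 301. Of 55 called genes named by rule, 39, 37, 32 or 36 were called with an I/R 8 h array left out in that order, and 24, 18, 18 or 45 with a sham array left out. The 15 that were called each time were Aif1, Aqp4, Car2, Ccl3, Ccl4, Chordc1, Cx3cr1, Fkbp4, Fkbp5, Gjb6, Hr, Pcdh9, Plin4, Timp1 and Unc80, and the other 40 lost the call without at least 1 array. The authors' processed ratios gave 11 called genes. Of the 346, 342 had the same direction on each of slides 1, 3 and 4, which calling them on these arrays favours.

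Stress and inflammation genes are textbook targets of a few classes of transcription factor, and promoters of called genes that hold the motif of one are shown first. AP-1, made of Fos, Jun and Atf proteins, binds TGACTCA or TGAGTCA and was searched for as TGANTCA, with the middle base left free. Heat shock factor binds inverted repeats that contain GAANNTTC, and factors of the CREB family bind TGACGTCA. Each stretch runs from 200 bases before to 25 bases after the RefSeq gene start (GRCm38.p6), 5′ to 3′, and capitals mark the motif.

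The first 3 belong to the called chaperone genes with GAANNTTC in this window, where Hspa1a was higher and Chordc1 and Fkbp4 were lower at I/R 8 h.
Hspa1a, chr17:34972132-34972356, minus strand: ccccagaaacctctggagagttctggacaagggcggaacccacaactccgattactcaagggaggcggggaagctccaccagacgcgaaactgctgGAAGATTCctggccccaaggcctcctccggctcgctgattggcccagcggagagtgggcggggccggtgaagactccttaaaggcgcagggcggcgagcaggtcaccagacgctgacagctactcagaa
Chordc1, chr9:18292067-18292291, plus strand: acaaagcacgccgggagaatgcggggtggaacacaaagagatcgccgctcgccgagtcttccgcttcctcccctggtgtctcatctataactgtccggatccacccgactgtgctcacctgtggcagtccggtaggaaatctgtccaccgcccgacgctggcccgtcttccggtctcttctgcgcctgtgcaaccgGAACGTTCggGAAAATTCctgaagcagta
Fkbp4, chr6:128438632-128438856, minus strand: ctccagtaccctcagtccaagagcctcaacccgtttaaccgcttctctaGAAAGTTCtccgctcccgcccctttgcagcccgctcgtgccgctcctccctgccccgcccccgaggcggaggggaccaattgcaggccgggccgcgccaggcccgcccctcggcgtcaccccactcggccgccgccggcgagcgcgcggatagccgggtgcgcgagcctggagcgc
The other 3 belong to called genes with TGANTCA, the chemokine gene Ccl9 and the sulfiredoxin gene Srxn1, both higher at I/R 8 h, and Fam180a, which was lower.
Ccl9, chr11:83578612-83578836, minus strand: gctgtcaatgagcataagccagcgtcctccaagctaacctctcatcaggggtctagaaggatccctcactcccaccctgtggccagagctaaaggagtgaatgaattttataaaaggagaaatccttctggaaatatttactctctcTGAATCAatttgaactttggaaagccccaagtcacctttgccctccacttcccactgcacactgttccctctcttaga
Srxn1, chr2:152105324-152105548, plus strand: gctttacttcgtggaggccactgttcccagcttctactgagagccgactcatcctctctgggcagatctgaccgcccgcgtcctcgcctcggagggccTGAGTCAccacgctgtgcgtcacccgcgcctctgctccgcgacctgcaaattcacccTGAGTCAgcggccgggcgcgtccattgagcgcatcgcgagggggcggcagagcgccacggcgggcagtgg
Fam180a, chr6:35326117-35326341, minus strand: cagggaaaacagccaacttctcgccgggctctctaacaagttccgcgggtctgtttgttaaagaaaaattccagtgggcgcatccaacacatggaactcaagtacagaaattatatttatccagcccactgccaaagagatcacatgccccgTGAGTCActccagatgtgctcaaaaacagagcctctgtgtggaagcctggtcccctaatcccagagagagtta
Counted in bases from the gene start, the heat shock pair began at -104 in Hspa1a, at -151 in Fkbp4 and at -4 and 6 in Chordc1. It was also in the windows of Rgs5 (8) and Syn2 (-226), which are not chaperone genes and were both lower. The TGANTCA letters began at -53 in Ccl9, at -102 and -45 in Srxn1 and at -48 in Fam180a. They were also in the windows of Mt2 (-79) and Osmr (3), both higher. The middle base was C or G in Srxn1, Fam180a and Mt2, but A in Ccl9 and T in Osmr, which is outside the usual AP-1 site. Windows of 300 bases, from 250 before to 50 after the start, were searched on both strands, with windows found for 134 of the 171 higher genes, 134 of the 175 lower genes and 7837 of all genes tested. GAANNTTC was in 1.81% of 166 windows of higher genes and 13.2% of 174 windows of lower genes, against 5.69% of 10232 windows of all genes tested. TGANTCA was in 9.64% of the higher and 5.17% of the lower windows, against 5.29% of those of all genes tested. TGACGTCA was in 2.41% of the higher and 4.6% of the lower windows, against 3.01% of those of all genes tested. A match is a run of letters and no measured site, genes with several starts give several windows, and the shares were not tested.

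Some chemokine genes, which encode small secreted proteins that attract leukocytes, were far above sham, and Ccl4 had the largest change of the called genes named here. Of 28 cytokine and chemokine genes on the array, 15 were tested, of which 4 rose and 1 fell (33.3% called, against 3.51% of all genes). The median change was 1.19, or 0.81 with the 7 members undetected in sham at their bound, against 0.01 over all genes. In 12 every I/R array was above every sham array, as in 6.66% of all genes. The 7 undetected members entered the test only through I/R groups, which favours a rise. The median was 0.57 over 28 genes with no detection filter. It was 0.52 over the 6 with a detection p under 0.01 on every compared array.

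Ccl4, which attracts monocytes and lymphocytes, had log2 signals of 10.62, 10.10, 10.03 and 9.87 on the 4 I/R 8 h arrays, against 4.82, 4.78, 4.64 and 4.94 in sham. All 4 sham values were below detection and all 4 I/R values far above them. Set against the detection limit of the sham arrays, Ccl4 was at least 31.2-fold higher (limma adjusted p = 0.00408). A fold given in this way compares the mean signal at I/R 8 h with, on each sham array, the lowest signal of any detected probe or the gene's own signal where that was higher. Its neighbour in function Ccl3 read 8.89, 8.51, 8.30 and 8.64 at I/R 8 h, against 4.75, 4.69, 4.90 and 5.07 in sham. It too was undetected in sham, without overlap, and was at least 10.5-fold higher (limma adjusted p = 0.00938).

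Cxcl1, a neutrophil attractant, read 8.33, 8.96, 8.60 and 8.10 at I/R 8 h, against 4.57, 5.23, 5.04 and 5.11 in sham, a change of 3.51 ± 0.87 (SE; limma adjusted p = 0.0342). Only 1 sham array detected Cxcl1, so the size of the change rests on values below detection. The groups were wide apart, but the call was lost with any of the 8 arrays left out. Ccl9, made by macrophages and other myeloid cells, read 9.61, 9.34, 9.26 and 8.95 at I/R 8 h, against 6.31, 6.76, 6.93 and 6.60 in sham. The change was 2.64 ± 0.55 (limma adjusted p = 0.0162), with every I/R array higher. The gene that fell was Cxcl12, a chemokine that vessel and stromal cells make in the resting brain and that is named here to complete the count. Its log2 signal was 7.87, 8.32, 7.95 and 7.76 at I/R 8 h, against 9.05, 9.11, 8.83 and 8.73 in sham (change -0.96 ± 0.15, limma adjusted p = 0.00272). Its groups did not overlap.

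The monocyte attractant Ccl2 averaged 6.07 at I/R 8 h, against 4.60 in sham, where it was undetected, at least 1.84-fold higher, and did not pass (limma adjusted p = 0.174). The inflammasome product Il1b averaged 5.89 at I/R 8 h, against 4.71 in sham, also undetected there (at least 1.62-fold, limma adjusted p = 0.248). Neither gene's groups overlapped. Il6 and Tnf, the cytokines named most often in stroke, were not well above background on any of the 8 arrays and have no fold. The number of cytokine genes called higher was 2 without sham replicate 1, 2 or 3 and 3 without each of the other arrays. With only the 8 compared arrays in the fit it was 11.

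**Figure D1:**
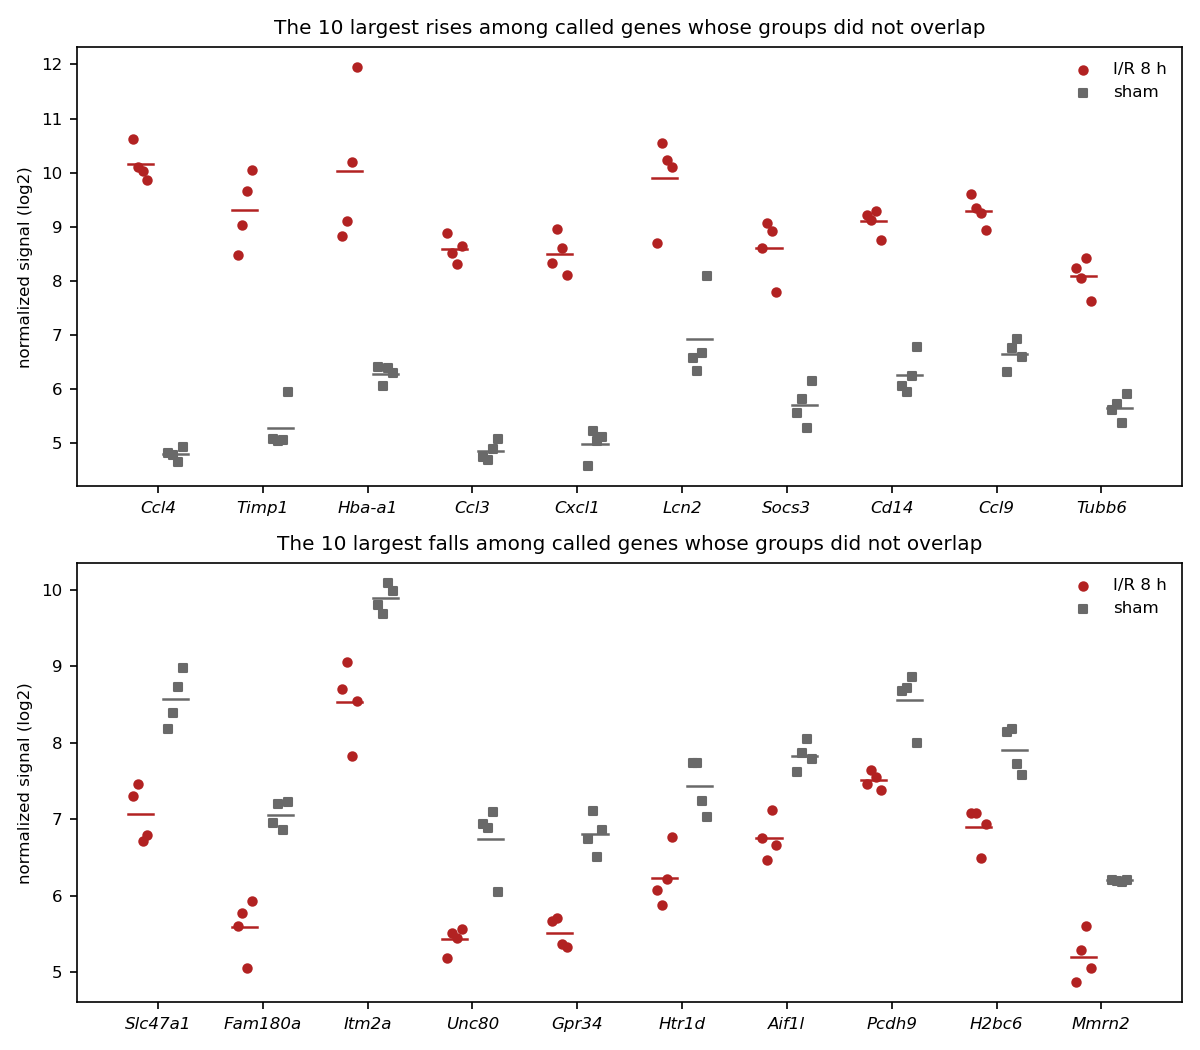
Log2 signals (vertical axis) of the 10 called genes with the largest rises and the 10 with the largest falls among those whose groups did not overlap. Each point is an array, I/R 8 h left and sham right in each pair, and a bar marks the mean of 4. Ccl4 stands at 9.87 to 10.62 at I/R 8 h and 4.64 to 4.94 in sham.

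Some genes of cytokine signalling were higher. Of 18 genes of NF-kB feedback and cytokine signalling, 5 rose and 0 fell (27.8% called, against 3.51% of all genes). The median change was 0.58, against 0.01 over all genes. Socs3, which blocks cytokine receptors that act through STAT3, read 8.61, 9.07, 8.92 and 7.80 at I/R 8 h, against 5.56, 5.82, 5.29 and 6.15 in sham. The change was 2.89 ± 0.65 (limma adjusted p = 0.0218), and the lowest I/R array stood above the highest sham array. Cd14, the coreceptor for bacterial lipopolysaccharide on myeloid cells, read 9.22, 9.13, 9.30 and 8.76 at I/R 8 h, against 6.05, 5.94, 6.24 and 6.78 in sham (2.85 ± 0.60, limma adjusted p = 0.0179). Its groups were also apart.

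Osmr, the receptor for oncostatin M, changed by 1.64 ± 0.37 (limma adjusted p = 0.0218) and Tlr2, a receptor for bacterial lipoproteins, by 1.41 ± 0.31 (limma adjusted p = 0.0211). The NF-kB subunit Relb, which completes the count, changed by 0.67 (limma adjusted p = 0.0211) and was detected on 1 sham array. The adhesion molecule Icam1 averaged 7.48 at I/R 8 h, against 6.27 in sham, and missed the threshold (limma adjusted p = 0.0573). Of the list's genes, 0 were called without sham replicate 2 or 3, 1 without sham replicate 1, 2 without I/R 8 h replicate 2 or 3, and 4 or 5 without each of the others. Genes induced by interferon (20 tested, median change -0.01) and complement genes (8 tested, median 0.02) had 0 called members in limma at this threshold.

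Genes listed for reactive astrocytes were above sham, though bulk tissue does not show which cells made the RNA. Of 20 reactive astrocyte genes tested, 8 rose and 0 fell (40% called, against 3.51% of all genes). In 16 every I/R array was above every sham array, as in 6.66% of all genes. The median change was 1.19, or 1.02 with the 3 members undetected in sham at their bound, against 0.01 over all genes. The summed signal of the list was 6619 to 9244 intensity units at I/R 8 h, against 2182 to 3192 in sham.

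Timp1, a secreted inhibitor of matrix metalloproteinases, read 8.48, 9.03, 9.66 and 10.04 at I/R 8 h, against 5.07, 5.03, 5.06 and 5.95 in sham, where only 1 array detected it. The I/R arrays were far above the sham arrays, and the change of 4.03 ± 0.55 (limma adjusted p = 0.00172) was called with each array left out. Lcn2, which binds bacterial iron carriers and is made by astrocytes and neutrophils alike, read 8.70, 10.55, 10.24 and 10.10 at I/R 8 h, against 6.57, 6.34, 6.66 and 8.09 in sham. Its groups did not overlap, with I/R replicate 1 and sham replicate 4 closest to each other (2.98 ± 0.78, limma adjusted p = 0.0411).

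Serpina3n, a secreted protease inhibitor, read 10.87, 11.04, 10.61 and 11.14 at I/R 8 h, against 8.77, 8.76, 9.02 and 9.21 in sham, a change of 1.97 ± 0.45 (limma adjusted p = 0.023). The I/R arrays formed a narrow band above the sham arrays. The other members that rose were Cd14, Osmr and 3 genes that complete the count. Of these the lipid kinase Sphk1 changed by 1.58 (limma adjusted p = 0.0354) and the surface protein Cd109 by 0.98 (limma adjusted p = 0.0278). No sham array detected the transporter Slc10a6, which was at least 2.54-fold higher (limma adjusted p = 0.036).

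Gfap, the filament protein by which reactive astrocytes are usually stained, read 8.91, 9.06, 9.33 and 9.09 at I/R 8 h, against 8.39, 8.14, 8.84 and 8.56 in sham. The groups only just separated, and the change of 0.61 ± 0.27 did not pass (limma adjusted p = 0.205). The count of reactive genes called was 1 without sham replicate 1, 2 or 3, and 2, 3 or 4 when I/R 8 h replicate 2, 3 or 4 was left out. It was 18 with only the 8 compared arrays in the fit.

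Genes of resting astrocytes went in both directions. Of 18 tested, 2 rose and 1 fell (16.7% called, against 3.51% of all genes), with a median change of 0.14. Gjb6, connexin 30 of astrocyte gap junctions, read 11.90, 12.04, 12.14 and 12.18 at I/R 8 h, against 11.26, 11.55, 11.71 and 11.32 in sham (0.60 ± 0.12, limma adjusted p = 0.0123). The secreted protease Htra1 changed by 0.55 ± 0.12 (limma adjusted p = 0.0207). Aqp4, the water channel of astrocyte endfeet on vessels, read 10.39, 10.55, 10.27 and 10.75 at I/R 8 h, against 11.10, 11.34, 11.57 and 10.98 in sham. All its I/R arrays lay below the sham arrays, and the change was -0.76 ± 0.14 (limma adjusted p = 0.0108).

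Genes induced by glucocorticoid made up the list with the most called members. Of 20 tested, 10 rose and 0 fell (50% called, against 3.51% of all genes). In 11 every I/R array was above every sham array, as in 6.66% of all genes. The median change was 0.57, against 0.01 over all genes. The mean log2 signal of the list differed between the groups by 0.90, 0.84 and 0.63 within slides 1, 3 and 4.

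Plin4, a coat protein of lipid droplets, read 10.36, 10.47, 10.07 and 10.61 at I/R 8 h, against 8.49, 8.57, 8.16 and 7.33 in sham (2.24 ± 0.34, limma adjusted p = 0.00276). Fkbp5, a cochaperone that lowers the affinity of the glucocorticoid receptor for its hormone, read 9.04, 9.22, 9.24 and 9.15 at I/R 8 h, against 8.01, 7.89, 7.80 and 7.56 in sham (1.35 ± 0.19, limma adjusted p = 0.00191). For both genes the I/R arrays lay close together, about 1 unit or more above every sham array, and the call held under all alternatives run, with each array left out included.

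Cdkn1a, the cell cycle inhibitor p21, read 10.65, 10.79, 10.45 and 10.63 at I/R 8 h, against 8.74, 8.87, 9.0 and 8.65 in sham (1.81 ± 0.39, limma adjusted p = 0.0192), without overlap. It is also a target of p53, and 2 further probes of the gene changed by 1.89 and 1.95. The metal-binding protein Mt2 read 9.10, 8.72, 8.98 and 8.66 at I/R 8 h, against 7.27, 6.88, 7.30 and 7.75 in sham (1.56 ± 0.36, limma adjusted p = 0.0238). The related Mt1 and Mt3 changed by -0.05 and 0.17 and did not pass.

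The remaining called members were Lcn2 and Gjb6, described above, and 4 that complete the count. The sulfotransferase Sult1a1 changed by 1.05 (limma adjusted p = 0.000496) and the kinase Map3k6 by 1.36 (limma adjusted p = 0.012). Pdk4, which holds back pyruvate oxidation, changed by 0.66 (limma adjusted p = 0.0398) and the arrestin-like Arrdc2 by 0.54 (limma adjusted p = 0.0264). Other textbook targets did not pass, with changes of 0.41 for Tsc22d3 (limma adjusted p = 0.0518), 0.42 for Per1, 0.06 for Sgk1 and -0.01 for Ddit4. The number called was 5 without sham replicate 1, 2 or 3, 7 to 9 without each other array, and 3 on the authors' ratios.

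Immediate early genes, which neurons and glia transcribe within minutes of a stimulus, were above sham in part. Of 26 tested, 3 rose and 0 fell (11.5% called, against 3.51% of all genes), with a median change of 0.56. Atf3, a stress transcription factor and AP-1 partner, read 7.20, 6.94, 7.72 and 6.24 at I/R 8 h, against 4.64, 4.98, 4.60 and 4.68 in sham. No sham array detected it, the groups did not overlap, and it was at least 3.57-fold higher (limma adjusted p = 0.0376). The stress sensor Gadd45b changed by 1.65 ± 0.39 (limma adjusted p = 0.0267), and Nptx2, a secreted organizer of synapses, by 1.38 ± 0.29 (limma adjusted p = 0.017).

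Fos read 9.72, 9.61, 10.43 and 8.91 at I/R 8 h, against 8.68, 8.88, 8.87 and 8.66 in sham, and did not pass (change 0.89, limma adjusted p = 0.351). Its lowest I/R array all but touched the highest sham array. The neuronal genes Npas4, detected on 2 sham arrays (0.93, limma adjusted p = 0.246), and Arc (0.72, limma adjusted p = 0.329) did not pass either. Of the list's genes, 0 were called without I/R 8 h replicate 3 or sham replicate 2 or 3, 1 without I/R 8 h replicate 1 or 2 or sham replicate 1, 2 without sham replicate 4, and 11 with only the 8 compared arrays fitted.

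**Figure D2:**
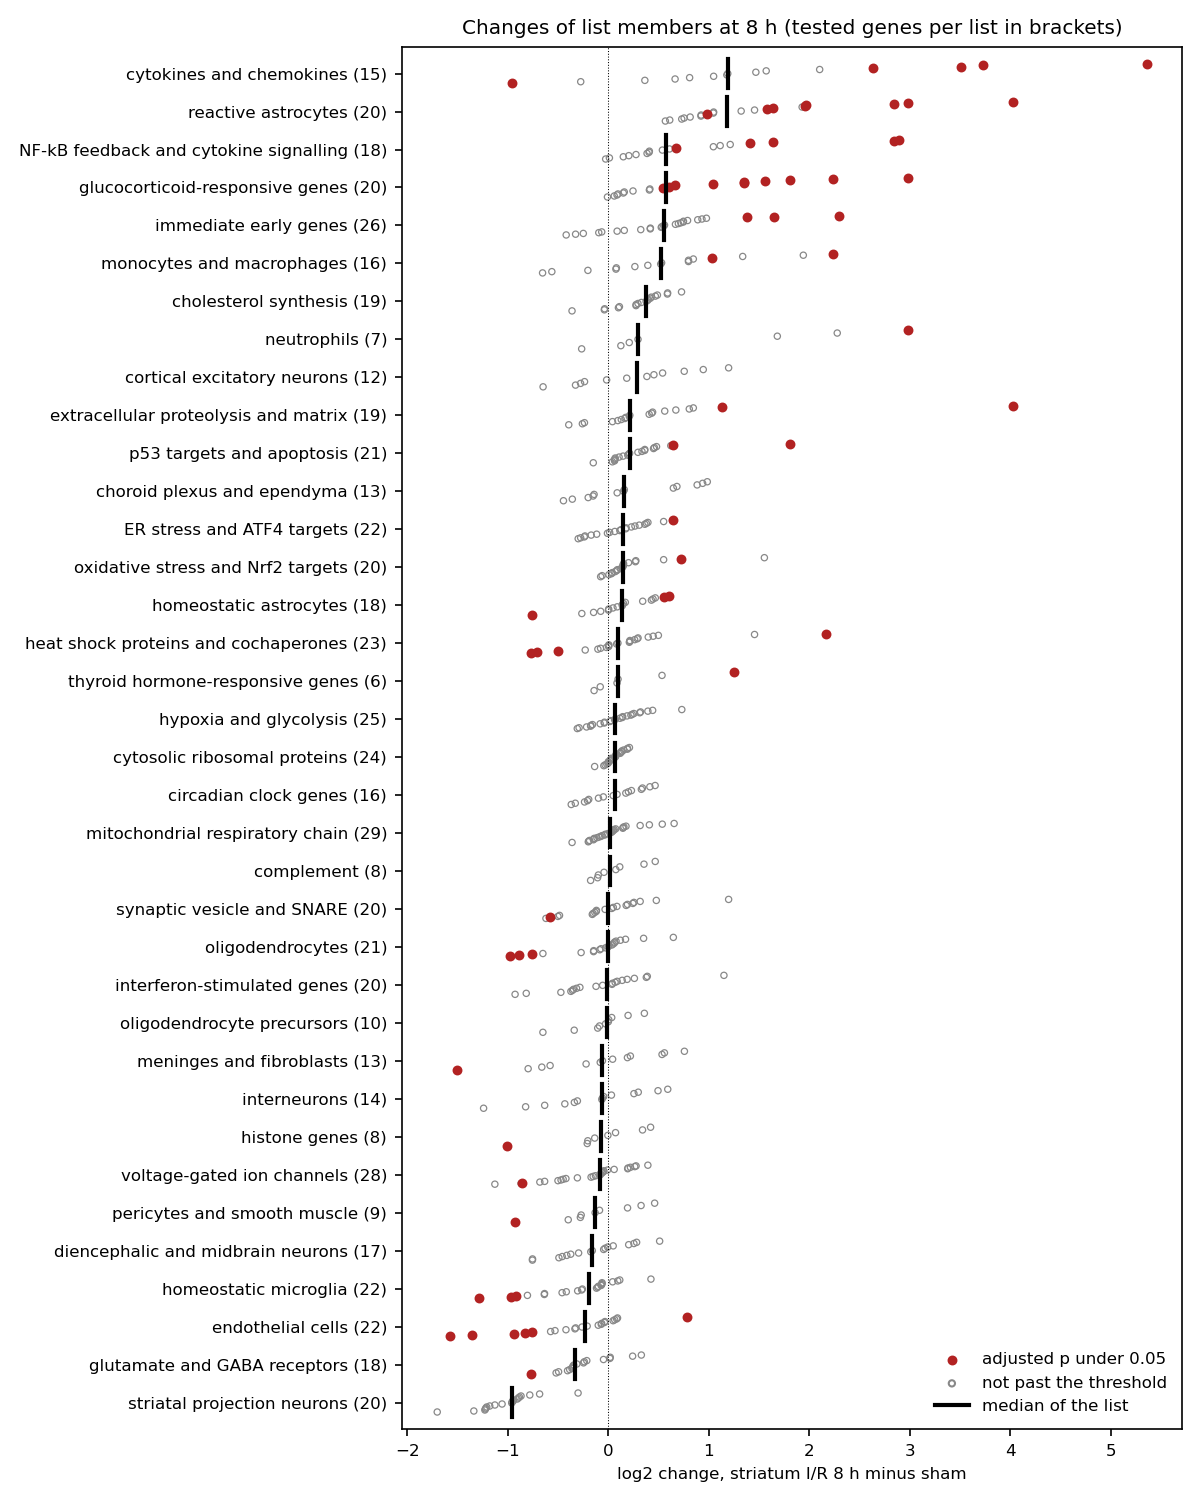
Log2 change at I/R 8 h against sham (horizontal axis) of every tested member of the gene lists with at least 5 tested genes. Each point is a gene, red where the adjusted p was under 0.05, and a black bar marks the list's median, 1.19 for cytokines and for reactive astrocytes and -0.96 for striatal projection neurons.

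Chaperones moved in opposite directions. Of 23 heat shock proteins and cochaperones, 1 rose and 3 fell (17.4% called, against 3.51% of all genes). The median change was 0.10. Hspa1a, the inducible chaperone HSP70, read 9.32, 8.39, 11.07 and 8.96 at I/R 8 h, against 7.11, 7.04, 7.84 and 7.08 in sham (2.17 ± 0.57, limma adjusted p = 0.0414). All I/R arrays were higher, over a spread of more than 2 units, and the call held without I/R 8 h replicate 2 but was lost without any 1 of the other 7 arrays. Hspa1a has the near-identical copy Hspa1b, and its probe may read both.

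Chordc1, a cochaperone of HSP90, read 10.09, 9.70, 9.57 and 9.75 at I/R 8 h, against 10.54, 10.59, 10.61 and 10.45 in sham (-0.77 ± 0.13, limma adjusted p = 0.00451). Fkbp4, the HSP90 partner that carries the glucocorticoid receptor to the nucleus, read 10.89, 11.12, 11.13 and 11.19 at I/R 8 h, against 11.71, 11.51, 11.58 and 11.55 in sham (-0.50 ± 0.09, limma adjusted p = 0.00972). Both were lower on every I/R array, and both calls held with each array left out. Hsf1, the transcription factor that drives chaperone genes, changed by -0.70 ± 0.16 (limma adjusted p = 0.0221). The small heat shock protein Hspb1 averaged 8.66 at I/R 8 h, against 7.20 in sham, and did not pass (limma adjusted p = 0.138).

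Of the other stress lists, that of p53 targets and apoptosis had 2 of 21 genes called, Cdkn1a and Sesn2 (9.52%, median change 0.21). The rest had 0 or 1 called members a list, where 3.51% of all genes were called. Of 22 genes of endoplasmic reticulum stress and ATF4, only Sesn2 rose, a sestrin that restrains growth signalling (0.65 ± 0.15, limma adjusted p = 0.023). Of 20 oxidative stress and Nrf2 targets, only Srxn1 rose, which repairs oxidized peroxiredoxins. It read 10.90, 10.93, 10.95 and 10.41 at I/R 8 h, against 10.10, 10.04, 10.00 and 10.13 in sham (0.73 ± 0.18, limma adjusted p = 0.0368). Its other probes changed by 0.64 and 0.46 and did not pass. The Srxn1 call was lost with median scaling, with no detection filter and with any 1 array left out except I/R 8 h replicate 4.

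Hmox1, haem oxygenase, read 7.20, 6.57, 7.49 and 7.04 at I/R 8 h, against 5.07, 5.55, 5.51 and 5.95 in sham, higher on every I/R array, but did not pass (1.55 ± 0.54, limma adjusted p = 0.111). The glutathione peroxidase Gpx1 changed by -0.06 (limma adjusted p = 0.828). Of 25 hypoxia and glycolysis genes 0 were called, with a median of 0.07. Among them the growth factor Vegfa read 9.59, 8.78, 9.27 and 9.26 at I/R 8 h, against 9.06, 9.45, 9.29 and 9.81 in sham, with the groups interleaved (-0.17, limma adjusted p = 0.613). Of 19 cholesterol synthesis genes 0 passed, although 16 changes were above 0 (median 0.38). Of 24 cytosolic ribosomal protein genes and 29 genes of the mitochondrial respiratory chain, 0 were called.

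Some genes of resting microglia were lower. Of 22 genes of these immune cells of brain tissue, 0 rose and 3 fell (13.6% called, against 3.51% of all genes). The median change was -0.19. Cx3cr1, the receptor by which microglia sense neuronal fractalkine, read 7.85, 7.17, 7.82 and 7.39 at I/R 8 h, against 8.75, 8.67, 8.42 and 8.26 in sham (-0.97 ± 0.15, limma adjusted p = 0.00345). Aif1, the actin-binding protein IBA1, read 6.72, 6.85, 6.67 and 6.74 at I/R 8 h, against 7.83, 7.70, 7.44 and 7.68 in sham (-0.92 ± 0.13, limma adjusted p = 0.00195). For both genes each I/R array was below each sham array, and both calls held under all alternatives run.

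The third was the lipid receptor Gpr34, with 5.67, 5.71, 5.37 and 5.33 at I/R 8 h, against 6.75, 7.11, 6.51 and 6.86 in sham (-1.29 ± 0.30, limma adjusted p = 0.0245). Most other microglial genes moved little, with changes of -0.06 for Csf1r and -0.12 for Trem2. P2ry12, the purine receptor of resting microglia, averaged 5.91 at I/R 8 h, against 6.54 in sham, and did not pass (limma adjusted p = 0.224). In bulk tissue, fewer cells of a type and less RNA per cell cannot be told apart, here and in the cell lists below.

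Some genes listed for monocytes, neutrophils and red cells were higher, though bulk tissue does not show which cells made the RNA. Of 16 monocyte and macrophage genes, 2 rose and 0 fell (12.5% called, against 3.51% of all genes), with a median of 0.53. Lgals3, a sugar-binding protein of active phagocytes, read 9.37, 9.15, 9.54 and 8.49 at I/R 8 h, against 6.53, 6.91, 6.78 and 7.39 in sham (2.24 ± 0.57, limma adjusted p = 0.0389). The antibody receptor Fcgr3 read 7.73, 8.30, 8.03 and 8.34 at I/R 8 h, against 7.16, 7.09, 6.96 and 7.08 in sham (1.03 ± 0.24, limma adjusted p = 0.0243). Neither gene's groups overlapped, but 0 of the list's genes were called without any 1 of I/R 8 h replicates 2 to 4 or sham replicates 1 to 3, and 1 without I/R 8 h replicate 1. The lysozyme gene Lyz2 averaged 7.45 at I/R 8 h, against 8.11 in sham (limma adjusted p = 0.152).

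Of 21 neutrophil genes on the array, 7 could be tested, while 14 did not meet the detection rule. Only Lcn2 rose (14.3% called, against 3.51% of all genes). The alarmin S100a8 read 6.51, 6.94, 9.28 and 8.64 at I/R 8 h, against 4.86, 5.25, 5.10 and 7.03 in sham. It was detected on 2 of the sham arrays, its groups overlapped, and the change of 2.28 ± 0.95 did not pass (limma adjusted p = 0.186). The summed signal of the 7 neutrophil genes was 750.6 to 2314 intensity units at I/R 8 h, against 322.1 to 638.7 in sham. Genes of strong signal weigh most in such a sum. The median change of the 7 was 0.30, and in 1 of them every I/R array was above every sham array, as in 6.66% of all genes.

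Haemoglobin Hba-a1, a marker of blood left in the tissue, read 8.83, 9.10, 10.20 and 11.95 at I/R 8 h, against 6.41, 6.05, 6.38 and 6.29 in sham (3.74 ± 0.95, limma adjusted p = 0.0371). Every I/R array was higher, over a range of more than 3 units, and the call held without I/R 8 h replicate 1 but was lost without any 1 of the other 7 arrays. Its probe may also read the near-identical copy Hba-a2. The red cell marker Alas2 did not meet the detection rule, and Hbb-bt, detected on 1 sham array, did not pass (1.25, limma adjusted p = 0.167). The part that blood cells have in the changes above was not tested.

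**Figure D3:**
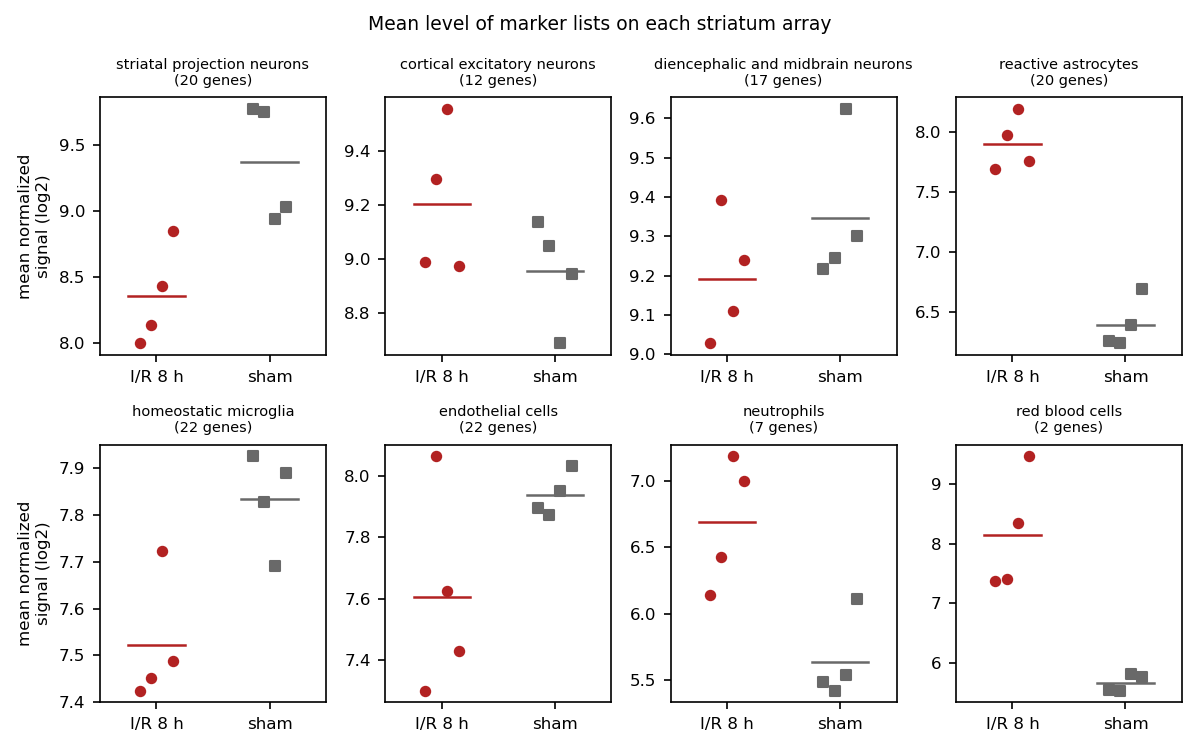
Mean log2 signal per array (vertical axis) over the tested genes of 8 cell type lists. Each point is an array, I/R 8 h left and sham right. Striatal projection neuron genes stand at 8.00 to 8.85 at I/R 8 h and 8.94 to 9.77 in sham.

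Striatal neuron genes were the lowest group relative to sham, yet none passed. All 20 tested genes of striatal projection neurons had a negative change, from -1.70 to -0.30 with a median of -0.96. For 10 of them every I/R array lay below every sham array, as for 7.06% of all genes. In limma 0 of the 20 passed with the spread pooled over 16 arrays, and 15 were called lower with only the 8 compared arrays fitted. The mean log2 signal of the list was 8.00, 8.14, 8.43 and 8.85 at I/R 8 h, against 9.77, 9.75, 8.94 and 9.03 in sham. Sham replicates 1 and 2 stood high within their group, and the closest arrays of the groups were only a little apart. The difference within slides 1, 3 and 4 was -0.60, -0.80 and -1.76.

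Drd1, the dopamine receptor of the direct pathway, read 7.19, 7.31, 8.31 and 8.72 at I/R 8 h, against 10.09, 10.18, 8.88 and 9.18 in sham (-1.70 ± 0.55, limma adjusted p = 0.0894). Drd2, that of the indirect pathway, read 6.87, 6.71, 7.61 and 7.70 at I/R 8 h, against 8.40, 8.28, 7.88 and 7.90 in sham (-0.89 ± 0.32, limma adjusted p = 0.118). Ppp1r1b, the dopamine signalling protein DARPP-32, read 9.87, 10.53, 10.55 and 10.82 at I/R 8 h, against 12.03, 11.90, 10.91 and 11.15 in sham (-1.06 ± 0.43, limma adjusted p = 0.174). All 3 were lower on every I/R array, with sham replicates 3 and 4 nearer to the I/R arrays.

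These markers were present, as the striatal label requires, but the labelled cortex carried them too. In sham tissue Drd1 averaged 9.58 in the striatum and 9.01 in the cortex, Drd2 8.11 and 7.79, and Ppp1r1b 11.50 and 11.56. Of 12 cortical excitatory neuron genes 0 were called between I/R 8 h and sham in the striatum, with a median change of 0.29.

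Among genes of the neuronal surface and synapse, the share called was near the 3.51% over all genes, with 1 gene a list. The A-type potassium channel Kcnd2 was the only one called of 28 voltage-gated ion channels, with 8.16, 8.48, 8.46 and 8.50 at I/R 8 h, against 9.67, 9.25, 9.35 and 8.77 in sham (-0.86 ± 0.20, limma adjusted p = 0.0234). The AMPA receptor subunit Gria3 was the only one of 18 glutamate and GABA receptors (-0.77 ± 0.18, limma adjusted p = 0.0267), and its other probes changed by -0.27 and -0.40 and did not pass. The vesicle protein Syn2 was the only one of 20 synaptic genes (-0.58 ± 0.15, limma adjusted p = 0.043). The Syn2 call was lost with slide as a fixed block, with the replicate block and with median scaling. It was also lost with no variance trend, with no detection filter, on the authors' ratios and with any 1 array left out except sham replicate 4. The Syn2 difference within slides 1, 3 and 4 was -0.04, -0.78 and -0.68. Outside the lists, the sodium leak channel subunit Unc80 read 5.19, 5.51, 5.45 and 5.57 at I/R 8 h, against 6.94, 6.88, 7.10 and 6.05 in sham (-1.31 ± 0.22, limma adjusted p = 0.00476). The cell adhesion protein Pcdh9 read 7.46, 7.65, 7.55 and 7.39 at I/R 8 h, against 8.67, 8.72, 8.86 and 8.00 in sham (-1.05 ± 0.16, limma adjusted p = 0.00231). Both were lower on every I/R array, and both calls held with each array left out. The serotonin receptor Htr1d changed by -1.20 ± 0.27 (limma adjusted p = 0.0226).

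Vessel genes were mostly lower where they passed. Of 22 endothelial genes, 1 rose and 5 fell (27.3% called, against 3.51% of all genes), with a median change of -0.23. Itm2a, a membrane protein of brain endothelium, read 8.71, 9.06, 7.83 and 8.55 at I/R 8 h, against 9.81, 9.69, 10.09 and 9.99 in sham (-1.36 ± 0.26, limma adjusted p = 0.012), without overlap. Flt1, a receptor for vascular endothelial growth factor, read 7.98, 8.41, 9.16 and 7.92 at I/R 8 h, against 9.11, 9.35, 9.51 and 9.22 in sham (-0.93 ± 0.21, limma adjusted p = 0.0211). Its I/R replicate 3 reached into the sham range.

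The amino acid transporter Slc38a5 read 5.17, 6.64, 4.85 and 4.99 at I/R 8 h, against 6.58, 6.76, 6.75 and 7.87 in sham (-1.58 ± 0.37, limma adjusted p = 0.0245). Only 1 of its I/R arrays was above background, so the size of this change rests on values below detection. Slco1a4, an organic anion carrier of the blood-brain barrier, changed by -0.83 ± 0.19 (limma adjusted p = 0.0218). In both, I/R replicate 2 overlapped sham. The angiopoietin receptor Tek (-0.76, limma adjusted p = 0.0354) fell and the lipid transporter Mfsd2a (0.79, limma adjusted p = 0.0108) rose, and they complete the count.

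The tight junction protein Cldn5 (-0.53, limma adjusted p = 0.105) and the adhesion molecule Pecam1 (-0.03) did not pass. The number of endothelial genes called lower was 0 without sham replicate 3 and 1 without sham replicate 2 or I/R 8 h replicate 4. It was 2 without I/R 8 h replicate 1 or 3, 3 without sham replicate 1 or 4, and 6 without I/R 8 h replicate 2. The mean log2 signal of the list differed by -0.41, 0.11 and -0.58 within slides 1, 3 and 4. Rgs5, a regulator of G proteins in pericytes, was the only one called of 9 mural cell genes (11.1%, against 3.51% of all genes). It read 6.32, 7.20, 6.74 and 6.23 at I/R 8 h, against 7.79, 7.69, 7.62 and 7.09 in sham (-0.93 ± 0.19, limma adjusted p = 0.0144). Its I/R replicate 2 stood above the lowest sham array.

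The vascular matrix protein Mmrn2, expressed by endothelium, changed by -1.0 ± 0.22 (limma adjusted p = 0.0196) and was detected on only 2 of the I/R arrays. Col4a1, a collagen of the vessel basement membrane, was with Timp1 the only one called of 19 matrix and proteolysis genes (10.5%, against 3.51% of all genes). It read 8.43, 8.91, 9.05 and 8.69 at I/R 8 h, against 7.76, 7.61, 7.48 and 7.69 in sham (1.14 ± 0.29, limma adjusted p = 0.0375), without overlap. Slc47a1, a cation exporter of meningeal and kidney cells, changed by -1.50 ± 0.36 (limma adjusted p = 0.0267). It was the only gene called of 13 for meninges and fibroblasts (7.69%, against 3.51% of all genes). Its other probes changed by -0.68 and -0.89.

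Some oligodendrocyte genes were lower. Of 21 tested, 0 rose and 3 fell (14.3% called, against 3.51% of all genes), around a median of 0.00. Car2, the carbonic anhydrase of oligodendrocytes, read 9.47, 9.40, 9.44 and 9.13 at I/R 8 h, against 10.36, 10.31, 10.29 and 10.39 in sham (-0.97 ± 0.12, limma adjusted p = 0.000751). Ugt8a, which makes the galactolipids of myelin, changed by -0.76 ± 0.18 (limma adjusted p = 0.0267).

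Both were lower on every I/R array. The major myelin protein Mbp did not pass, with a change of 0.04 (limma adjusted p = 0.864). Without sham replicate 3, 1 of the list's genes was called, and 2 without I/R 8 h replicate 1 or 2 or sham replicate 1 or 2. The histone gene H2bc6, whose probe may read other members of its family, changed by -1.01 ± 0.19 (limma adjusted p = 0.0122). Fam180a, a gene of little known function, changed by -1.47 ± 0.29 (limma adjusted p = 0.0126), and Aif1l, a relative of Aif1, by -1.08 ± 0.21 (limma adjusted p = 0.012). The tubulin gene Tubb6 read 8.24, 8.05, 8.41 and 7.62 at I/R 8 h, against 5.61, 5.72, 5.37 and 5.92 in sham, without overlap (2.43 ± 0.61, limma adjusted p = 0.0358). The Tubb6 call was lost with any array left out.

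The smallest p of the comparison belonged to Hr, the nuclear corepressor hairless, which binds thyroid hormone and vitamin D receptors and is induced by thyroid hormone in rodent brain. It read 10.73, 10.89, 10.57 and 10.86 at I/R 8 h, against 9.51, 9.59, 9.64 and 9.29 in sham, a change of 1.25 ± 0.12 (limma adjusted p = 4.80e-05). The 2 groups each spanned less than 0.4 units and lay far apart. A further probe of the gene changed by 1.34 (limma adjusted p = 0.00338). Hr was the only one called of 6 genes responsive to thyroid hormone (16.7%, against 3.51% of all genes). Its change was 1.28, 1.25 and 1.17 within slides 1, 3 and 4.

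Whether the response at 8 h differed between striatum and cortex was tested as an interaction over all 32 arrays. Of 10080 genes, 2 passed (0.0198%), and 482 had an unadjusted p under 0.05. A difference that missed the threshold was not shown to be absent. For Hr the striatal change exceeded the cortical change by 1.23 ± 0.19 (limma adjusted p = 0.00364). In the cortex Hr read 9.34, 9.43, 9.51 and 8.91 at I/R 8 h, against 9.38, 9.47, 9.13 and 9.13 in sham, with the groups intermixed. The difference was called under all alternatives run, between 1.11 and 1.31, and with each array left out, while the further probe of Hr gave 1.17 without passing (limma adjusted p = 0.443).

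Gart, an enzyme of purine synthesis, read 7.96, 8.05, 8.07 and 8.39 at I/R 8 h in the striatum, against 8.02, 8.11, 8.22 and 8.06 in sham, with full overlap. In the cortex it read 8.05, 8.47, 8.31 and 8.41 at I/R 8 h, against 7.59, 7.53, 7.61 and 7.58 in sham, without overlap. The striatal minus the cortical change was -0.72 ± 0.14 (limma adjusted p = 0.0482), and the other probe gave -0.09. This call was kept without striatal I/R 8 h replicate 4 or cortical I/R 8 h replicate 1 and lost without any 1 of the other 14 arrays. The striatal minus the cortical change was -0.15 for Ccl4, 0.02 for Timp1, -0.05 for Plin4 and 0.07 for Fkbp5, and none of these 4 passed. For Drd1 it was -1.10 (limma adjusted p = 0.982).

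**Figure D4:**
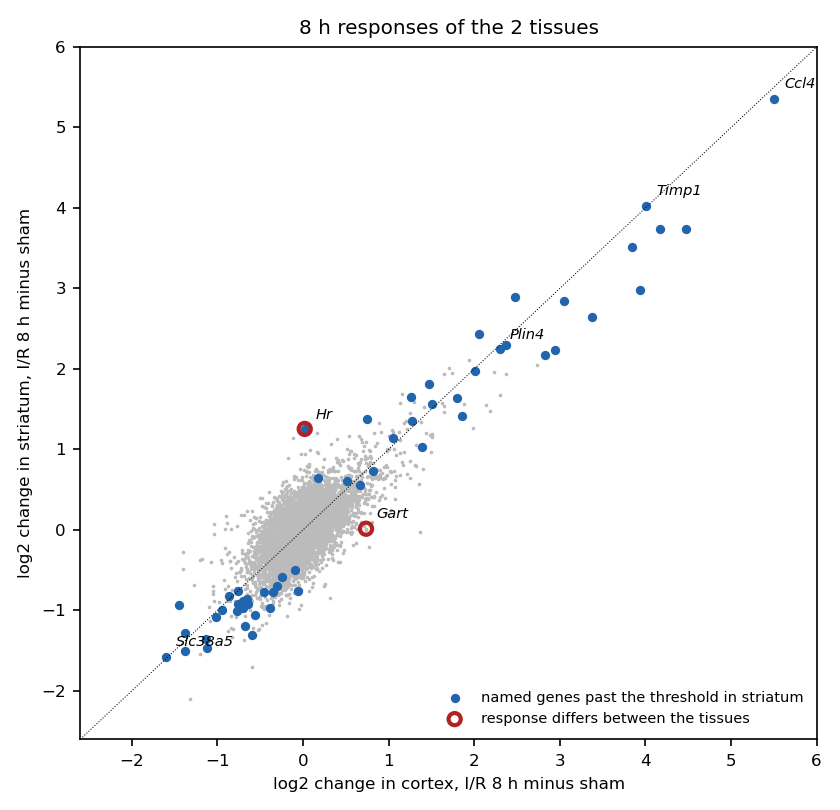
Log2 change at I/R 8 h against sham in the striatum and in the cortex, a point per gene, with the called named genes in blue. Hr and Gart, the 2 genes whose changes differed between tissues, are circled. Hr lies at 1.25 in the striatum and Gart at 0.01.

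The striatum at 2 h and 24 h after reperfusion places the 8 h values in order of time, as levels that share the same sham arrays and without a test here. Hr averaged 9.51 in sham, then 10.00, 10.76 and 9.33 at 2, 8 and 24 h. Fkbp5 averaged 7.82 in sham, then 8.38, 9.17 and 7.77 at 2, 8 and 24 h. Plin4 averaged 8.14 in sham, then 8.72, 10.38 and 8.72 at 2, 8 and 24 h. For these 3 genes the highest of the 4 means was that at 8 h.

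Ccl4 averaged 4.79 in sham, then 9.78, 10.15 and 8.44 at 2, 8 and 24 h, with a spread of 2.85 (SD, n = 4) at 24 h. Hspa1a averaged 7.27 in sham, then 9.98, 9.44 and 7.04 at 2, 8 and 24 h. Serpina3n averaged 8.94 in sham, then 9.50, 10.92 and 11.69 at 2, 8 and 24 h. At 24 h Serpina3n read 13.05, 10.78, 12.83 and 10.11, so that only replicates 1 and 3 stood above the 8 h arrays. Cx3cr1 averaged 8.52 in sham, then 8.49, 7.55 and 8.88 at 2, 8 and 24 h, lowest at 8 h. Car2 averaged 10.34 in sham, then 9.93, 9.36 and 10.07 at 2, 8 and 24 h, also lowest at 8 h.

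**Figure D5:**
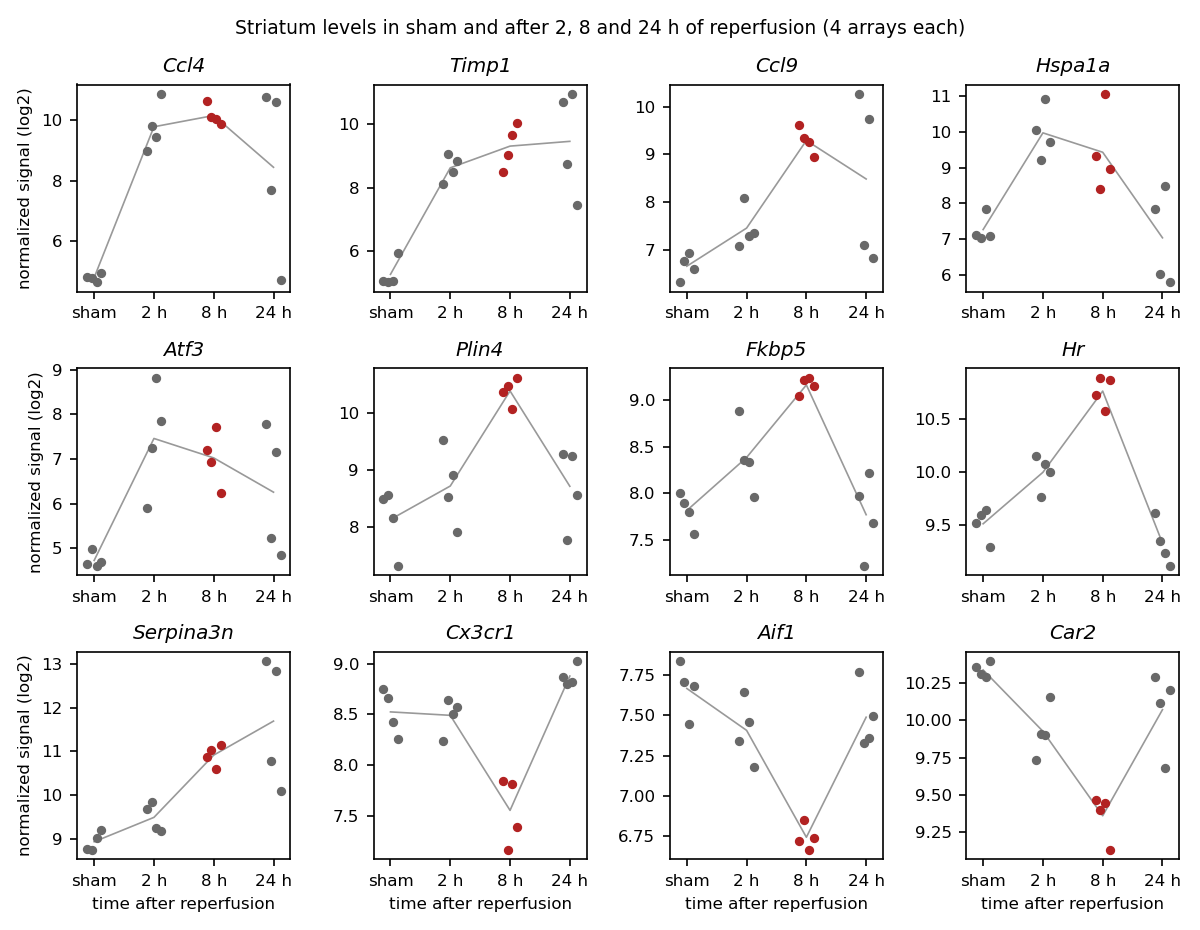
Log2 signal (vertical axis) of 12 genes in the striatum of sham mice and at 2, 8 and 24 h of reperfusion (horizontal axis). Each point is an array, with the 8 h arrays in red, and the line joins the means of 4. Hr, Fkbp5 and Plin4 have their highest mean at 8 h, and Cx3cr1 and Car2 their lowest.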

How the data were processed

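Per the file headers, the authors exported intensity values as mean bead signals per probe with BeadStudio 3.3.7, without normalization or background subtraction. The deposited striatum table gives detection as a fraction, 1 minus the detection p. The value table of the series holds ratios that, compared with the deposited signals, differ from them by a constant per array and per probe on the log2 scale. Their column medians were 0.9457 to 1.023, and they served as an alternative. RNA was extracted with a miRNeasy kit and biotin-labelled, per the labels' protocols.

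The probe signals of the whole series were used (25697 probes, after 837 without values), and 8 columns that match no sample were left out. Probes were named by accession through RefSeq (23876), by symbol (728) or synonym (709), and 384 kept the array's name. Replicates bear the number in the deposited table, which differs from that in the sample descriptions for all 32 arrays, while the group is the same for all 32. Background was corrected in limma 3.58.1 (R 4.3.3) by the normal-exponential method from detection p-values, with an offset of 16, then quantile normalization over 32 arrays and log2. A gene was tested where its probe had a detection p under 0.05 on all 4 arrays of at least 1 striatal group, so that genes silent in sham entered only if detected after I/R. Each symbol is represented by its probe of highest mean. Of the genes tested, 208 entered only through the 2 h or 24 h group.

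The 16 striatal arrays were fitted together (lmFit, eBayes with a variance trend, 2-sided, Benjamini-Hochberg over all genes). The tissue difference was an interaction contrast over 32 arrays. The median spread over genes was 0.204 at I/R 8 h, 0.163 in sham, 0.179 at 2 h and 0.192 at 24 h (SD, n = 4). Some genes spread far more at 24 h, as Cxcl1 did with 2.69, against 0.37 at I/R 8 h and 0.29 in sham. The 24 h arrays enter the pooled spread, and so the SE and p of the 8 h change. The comparison, the 39 gene lists (607 of 830 listed symbols tested), the named genes and the tests were chosen with earlier results of these data known. Named genes are the 10 largest rises and falls past the threshold without overlap of the groups, with clones and unnamed gene models skipped, up to 4 called members per list with the largest changes, a panel of 27, and up to 5 genes whose response differed between tissues. Of the panel, 23 were tested and 7 called. Genes that complete a list's count lie outside this rule and were chosen after their values were seen. Promoter windows came from RefSeq (GRCm38.p6). Alternatives were other backgrounds, scalings, filters and probe rules, array weights, no trend, and slide or replicate blocks. Others were the 8 arrays alone, the authors' ratios and each array left out. The deposited striatum table holds the same signals, so its run repeated quantile normalization within each tissue and is no separate check. A few members of the lists are counted but not reported here by name.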

Additional observations from a re-analysis of the deposited data

Results flagged for a closer look

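Among 144 groups of 4 arrays of the named genes, 8 had 1 array far from its other 3, where chance gives about 1 in 20. Sham replicate 4 was highest for Timp1 (5.95) and for Slc38a5 (7.87) and lowest for Syn2 (11.69), and sham replicate 3 was highest for Hspa1a (7.84). I/R 8 h replicate 4 was lowest for P2ry12 (5.23) and Srxn1 (10.41), replicate 1 was lowest for Kcnd2 (8.16), and replicate 2 was highest for Slco1a4 (6.92). The difference between the tissues' responses passed its test for Hr, where the striatal change was 1.23 above the cortical one, and for Gart, where the difference was -0.72.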

How the results depend on the processing

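None of the 55 called named genes changed direction under any setting, and the other called genes were not checked for this. The 346 calls of the striatal comparison were 161 with median scaling, 214 with no detection filter, 527 with every probe tested, 721 with array weights, 606 with only the 8 compared arrays and 11 (7 higher, 4 lower) on the authors' processed ratios, and 59 to 301 with 1 array left out. The cause was not tested, apart from the fewer or more genes tested under the filter and probe rules. The other settings gave 260 to 435. Deviations of same-numbered arrays correlated at -0.12, -0.23, -0.11 and -0.01, against -0.16 to 0.22 for arrays of different numbers. This showed no pairing by the deposited table's numbers, but so few arrays cannot exclude it, and the numbers of the descriptions were not checked. The replicate block gave 300 calls, and 1 in place of 2 for the tissue difference. The tissue difference was 1 gene (Hr) also under median scaling, an offset of 50, no background correction, slide as a fixed block, every probe and no detection filter, and 1 to 2 with 1 array left out. Of 55 called named genes, 15 were called with each array left out, and 5 (Aif1, Cx3cr1, Fkbp5, Hr and Plin4) also under all other settings. Of 14 further probes of called named genes, all 14 had the same direction and 9 passed. Of called genes, 10 were undetected on all sham arrays and 4 on all I/R 8 h arrays, so their fitted changes depend on the background.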

Other observations

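Of the 346 called genes, 287 were in no list, and some of the smallest p-values lay there. These genes were chosen after their values were seen. Sgk3, a kinase related to the glucocorticoid-induced Sgk1, read 9.16, 9.38, 9.02 and 9.51 at I/R 8 h, against 7.94, 7.98, 7.73 and 7.42 in sham (1.5 ± 0.18, limma adjusted p = 0.000496). Pnpla2, the lipase that opens the breakdown of stored fat, read 10.06, 10.59, 9.59 and 10.38 at I/R 8 h, against 9.29, 8.95, 8.92 and 8.93 in sham (1.13 ± 0.21, limma adjusted p = 0.00972). Neither gene's groups overlapped.

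Wnt7a, a ligand of brain endothelium, read 6.57, 6.52, 6.66 and 6.55 at I/R 8 h, against 7.48, 7.43, 7.53 and 7.48 in sham (-0.90 ± 0.13, limma adjusted p = 0.00172). Prkaa2, a catalytic subunit of the energy sensor AMPK, read 6.72, 6.83, 6.78 and 6.78 at I/R 8 h, against 7.63, 7.80, 7.82 and 7.64 in sham (-0.95 ± 0.15, limma adjusted p = 0.00288). Both had narrow groups that lay well apart. The chemokine Ccl17 read 6.18, 6.79, 6.04 and 6.01 at I/R 8 h, against 4.72, 5.19, 4.83 and 5.19 in sham, without overlap (1.27 ± 0.23, limma adjusted p = 0.00938). Only 1 sham array detected it, so the size of the change rests on values below detection.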
